A study of Mus musculus with 8 samples.

Results

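The platelet-derived growth factor (PDGF) ligands and receptors were examined in libraries labelled as liver endothelial cells (ECs), with and without LRP1. The 7 genes were taken by symbol: the ligands Pdgfa, Pdgfb, Pdgfc and Pdgfd, the receptor kinases Pdgfra and Pdgfrb, and the receptor-like gene Pdgfrl. They are 7 of the 22520 protein-coding genes in the deposited table, and all 7 passed the filter on low values, which left 11391 genes. In LRP1 eKO libraries Pdgfc and Pdgfra were lower, Pdgfd, Pdgfb and Pdgfa were higher, and no difference was detected for Pdgfrb or Pdgfrl.

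PDGFs are secreted dimers that bring receptor chains together, which then phosphorylate each other on tyrosine. PDGF-A and PDGF-C act mainly through PDGFRα, PDGF-B binds both receptors, and PDGF-D acts mainly through PDGFRβ. In blood vessels ECs secrete PDGF-B, which recruits pericytes that carry PDGFRβ, and in the liver the same receptor marks stellate cells. LRP1, the receptor removed in these mice, is a coreceptor of PDGFRβ, and its cytoplasmic tail is phosphorylated on tyrosine after PDGF-B is added to cells.

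The cells came from the liver of mice labelled C57BL/6 at postnatal day 14. In both groups the Lrp1 alleles were floxed (LRP1 f/f). LRP1 eKO mice carried Cdh5-CreER, an inducible recombinase under a promoter of ECs, and their WT littermates carried no CreER, so that an effect of CreER itself cannot be told apart from that of losing LRP1. The methods describe selection with PECAM-1 antibody beads, and the treatment that induced the recombinase is not given in the sources used here. Each group held 4 libraries. That each library came from a separate animal is not stated with the labels, and p-values then measure the spread between these libraries.

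The values are a quantile-normalized signal, which sums to between 484445 and 485947 in each library, and the depth of the libraries is unknown. The unit before normalization is not stated, so that a higher signal of 1 gene than of another is not read as a higher level per length. Where a marker sum is said to be led by 2 genes, they are those with the highest mean signal in it. Lrp1, the targeted gene, had a signal of 56.2 to 85.1 in WT libraries and of 2.16 to 6.01 in LRP1 eKO libraries. WT replicate 4 lay farthest from the median of its group for 61.7% of tested genes, and LRP1 eKO replicate 2 for 37.2%. Results are therefore also given without these libraries where a call moves.

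The labels describe an endothelial preparation, and the signals of its defining markers are given beside those of other cells, as they stand in the table and not per length. Pecam1, the bead antigen, averaged 2.09 ± 0.416 in WT libraries and 3.02 ± 0.911 in LRP1 eKO libraries (n = 4 each, SD), and Cdh5 averaged 1.86 ± 0.430 and 3.70 ± 1.34. The mesothelial marker Msln averaged 1020 ± 125 and 1305 ± 51.0 in the same libraries, and the smooth muscle actin gene Acta2 averaged 811 ± 37.3 and 1066 ± 32.1 (n = 4 each, SD). The signals of Pecam1 and Cdh5 were thus far below those of Msln and Acta2. The name of the preparation is that of the labels, and the signals of the members are not read as those of ECs alone. The table is bulk, and fewer cells of a type and less RNA per cell cannot be told apart in any result that follows.

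Upstream sequence is shown for Pdgfc, Pdgfra and Pdgfd, the members whose genotype differences were largest on the log2(signal + 1) scale. Each is the 250 bases before the RefSeq start on GRCm38.p6, read 5′ to 3′ on the plus strand. The Pdgfc window is chr3:81036166-81036415, the Pdgfra window is chr5:75152001-75152250 and the Pdgfd window is chr9:6168236-6168485. None of these windows overlaps an annotated exon. Capitals mark a match to 1 of 8 motifs, searched on both strands.
Pdgfc: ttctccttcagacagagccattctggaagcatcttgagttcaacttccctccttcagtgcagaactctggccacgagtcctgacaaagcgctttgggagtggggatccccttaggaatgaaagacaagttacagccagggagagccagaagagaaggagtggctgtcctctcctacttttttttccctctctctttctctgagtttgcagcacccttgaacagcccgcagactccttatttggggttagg
Pdgfra: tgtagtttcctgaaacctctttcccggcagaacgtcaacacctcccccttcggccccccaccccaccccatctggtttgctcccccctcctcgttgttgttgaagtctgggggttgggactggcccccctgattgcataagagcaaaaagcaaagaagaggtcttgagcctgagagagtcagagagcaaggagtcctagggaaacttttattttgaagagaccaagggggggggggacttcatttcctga
Pdgfd: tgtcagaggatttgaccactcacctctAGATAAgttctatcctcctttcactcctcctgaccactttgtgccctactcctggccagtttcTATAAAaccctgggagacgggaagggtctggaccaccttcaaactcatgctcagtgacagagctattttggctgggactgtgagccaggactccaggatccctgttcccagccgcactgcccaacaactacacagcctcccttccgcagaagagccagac

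The 8 motifs were also searched in 32851 upstream windows of this length. The FoxO motif GTAAACA was found in 3.17% of them and the Sp1 motif GGGCGG in 32.7%. The AP-1 motif TGANTCA was found in 6.75%, and the TATA box, searched as TATAAA, in 12.4%. The CCAAT box was found under that spelling in 33.8% of windows, and the E-box in the form CACGTG in 6.02%. The SMAD motif GTCTAGAC was rare, at 0.167%, and the GATA motif AGATAA was found in 9.99%. The motifs do not overlap each other in the windows shown. Pdgfd held AGATAA from base -223 to -218 and TATAAA from base -160 to -155, counted back from the start. Pdgfc and Pdgfra held none of the 8. Their windows had 3 and 4 CG pairs, and that of Pdgfd had 3, against a median of 6. The GC content was 50.8% for Pdgfc, 54.4% for Pdgfra and 53.6% for Pdgfd, against a median of 52.4%. In contrast, the 2 windows of Pdgfa had 19 and 28 CG pairs with a GC content of 66.4% and 72.4%, and they held Sp1 matches and none of the other motifs. These Pdgfa windows overlap annotated exons and are not printed. A match is a description of letters and not of binding.

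Pdgfc encodes a ligand that is secreted in a latent form and becomes active once its CUB domain is cut off. The gene lies on chromosome 3 from 81036416 to 81214040 (GRCm38). Its signal was 42.0, 42.5, 44.3 and 43.6 in WT replicates 1 to 4 and 28.3, 28.8, 28.0 and 28.3 in LRP1 eKO replicates 1 to 4. The groups lay far apart and each was narrow, with a coefficient of variation of 2.42% in WT libraries and 1.15% in LRP1 eKO libraries. The mean fell from 43.1 ± 1.04 to 28.4 ± 0.326 (n = 4 each, SD), or to 65.8% of WT. The difference on the log2(signal + 1) scale was -0.59 (standard error 0.039, limma adjusted p = 4.2e-06). By the size of its t statistic, Pdgfc stood 108th of the 11391 genes tested, and by the size of its decrease it stood 384th.

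Pdgfd encodes the other latent ligand of this kind, whose active form binds PDGFRβ. It lies on chromosome 9 from 6168584 to 6378850. The WT signals were 1.20, 1.58, 1.61 and 1.33, and the LRP1 eKO signals were 2.42, 3.44, 2.65 and 2.78, in replicates 1 to 4 of each group. Every LRP1 eKO library was above every WT library, and LRP1 eKO replicate 2 had the highest signal. Its mean signal rose from 1.43 ± 0.199 to 2.82 ± 0.439 (n = 4 each, SD). On the log2(signal + 1) scale the difference was 0.65 (standard error 0.094, limma adjusted p = 0.00057), the 335th largest increase of the genes tested. Because the signal is low, this scale understates the change, and the ratio of the arithmetic means was 1.97. The coding gene Ddi1 lies on the other strand within Pdgfd and was listed at 0 in every library.

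Pdgfb encodes the ligand that ECs secrete towards pericytes. It lies on chromosome 15 from 79995874 to 80014977. Its signal was 0.732, 0.983, 1.10 and 1.11 in WT replicates 1 to 4, and 1.49, 1.21, 1.53 and 1.42 in LRP1 eKO replicates 1 to 4. The groups did not overlap, but LRP1 eKO replicate 2 came close to WT replicates 3 and 4. The mean went from 0.979 ± 0.174 to 1.41 ± 0.144 (n = 4 each, SD), with a log2 difference of 0.29 (standard error 0.082, limma adjusted p = 0.020). The call was lost without LRP1 eKO replicate 1 or 3, with log2 differences of 0.27 and 0.26 (limma adjusted p = 0.053 and 0.058). Pdgfb reached a signal of 1 in 2 WT and 4 LRP1 eKO libraries, so that the LRP1 eKO libraries carried it past the filter. With no filter its limma adjusted p was 0.027.

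Pdgfa encodes a ligand of PDGFRα. It lies on chromosome 5 from 138976014 to 138997370. In WT replicates 1 to 4 the signal was 15.2, 14.3, 16.5 and 18.3, and in LRP1 eKO replicates 1 to 4 it was 20.0, 19.0, 19.1 and 18.5. The groups did not overlap, yet WT replicate 4 nearly reached LRP1 eKO replicate 4. The mean went from 16.1 ± 1.73 to 19.1 ± 0.653 (n = 4 each, SD), a log2 difference of 0.24 (standard error 0.071, limma adjusted p = 0.022). It missed the threshold without WT replicate 1, WT replicate 2 or LRP1 eKO replicate 1, with log2 differences of 0.22, 0.19 and 0.22 (limma adjusted p = 0.058, 0.054 and 0.060).

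Pdgfra encodes PDGFRα, the receptor of mesenchymal progenitors and fibroblasts. The gene lies on chromosome 5 from 75152292 to 75198215. Its WT signals were 31.9, 32.5, 33.1 and 30.5, and its LRP1 eKO signals were 22.1, 18.1, 23.8 and 20.5. All LRP1 eKO libraries were below all WT libraries, with LRP1 eKO replicate 2 lowest, and the LRP1 eKO libraries spread more widely than the WT libraries (coefficient of variation 11.5% and 3.45%). The mean fell from 32.0 ± 1.11 to 21.1 ± 2.44 (n = 4 each, SD), or to 66.0% of WT. The log2 difference was -0.58 (standard error 0.076, limma adjusted p = 0.00031), the 393rd largest decrease. The limma adjusted p was at most 0.0018 with any 1 library left out.

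Pdgfrb encodes PDGFRβ, the receptor for which LRP1 is a coreceptor. It lies on chromosome 18 from 61045150 to 61085061. The signal was 15.2, 16.6, 15.9 and 16.8 in WT replicates 1 to 4 and 17.2, 16.6, 16.8 and 15.7 in LRP1 eKO replicates 1 to 4. These ranges overlap over most of their width. The mean was 16.1 ± 0.733 in WT libraries and 16.6 ± 0.635 in LRP1 eKO libraries (n = 4 each, SD). The log2 difference was 0.038, with a 95% interval from -0.076 to 0.15 (limma adjusted p = 0.58). A difference of a size within this interval is not excluded by these libraries.

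Pdgfrl encodes a protein that resembles the extracellular part of a PDGF receptor and has no kinase. It lies on chromosome 8 from 40926212 to 40990785. The signal was 7.49, 7.95, 8.49 and 10.3 in WT replicates 1 to 4 and 10.4, 8.09, 9.32 and 9.16 in LRP1 eKO replicates 1 to 4. WT replicate 4 stood above the other WT libraries and above 3 of the LRP1 eKO libraries. The log2 difference was 0.11, with a 95% interval from -0.11 to 0.32 (limma adjusted p = 0.41). With 1 library left out it ran from 0.052, without WT replicate 1 or LRP1 eKO replicate 1 (limma adjusted p = 0.71 each), to 0.19, without WT replicate 4 (limma adjusted p = 0.084). It was 0.16 without LRP1 eKO replicate 2 (limma adjusted p = 0.22). Without both WT replicate 4 and LRP1 eKO replicate 2, a choice made after seeing the data, it was 0.24 (limma adjusted p = 0.016). With array weights, which give more variable libraries less influence, it was 0.21 (limma adjusted p = 0.020).

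**Figure D1:**
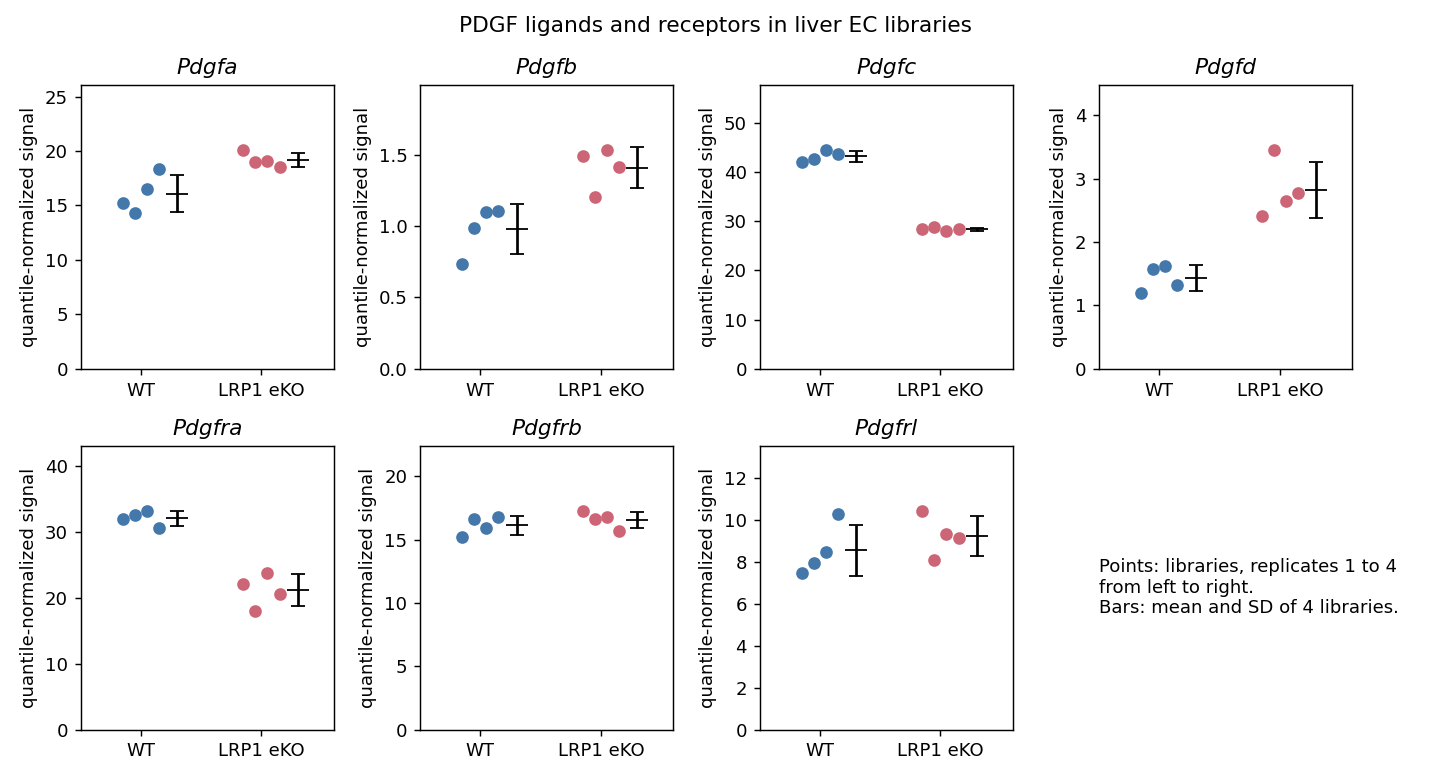
Quantile-normalized signal (y axis, from 0, a separate scale for each gene) of the 7 PDGF genes in 4 WT and 4 LRP1 eKO libraries, with the mean and SD of each group. The groups are apart for Pdgfc, with WT from 42.0 to 44.3 and LRP1 eKO from 28.0 to 28.8, and overlap for Pdgfrb and Pdgfrl.

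Antisense genes overlap Pdgfa, Pdgfb, Pdgfc and Pdgfra in the annotation, and since strand-specific counting is not stated, their reads cannot be told apart from those of the members. In all, 5 of the 7 members passed a limma adjusted p of 0.05, against 41.2% of all genes tested. In the direction of higher signal in LRP1 eKO libraries 3 members passed, against 19.0% of genes, and in the other direction 2 passed, against 22.2%. At a 2-fold change as well, 0 of the 7 members passed, against 1.66% of genes, of which 0.869% were higher and 0.790% lower. Of the 7 members 5 had no overlap between the groups, against 42.6% of genes, and these were 3 in the higher direction, against 20.0%, and 2 in the lower, against 22.5%. For each of these 5 the exact two-sided permutation test gave p = 0.029, the lowest value possible with 4 libraries in each group. The median size of the log2 difference was 0.29 for the members and 0.17 for all genes tested. With this few members and a background this high, the counts do not set the family apart from other genes. Without LRP1 eKO replicate 1, 3 members passed, namely Pdgfc, Pdgfd and Pdgfra, against 34.3% of genes in that fit.

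**Figure D2:**
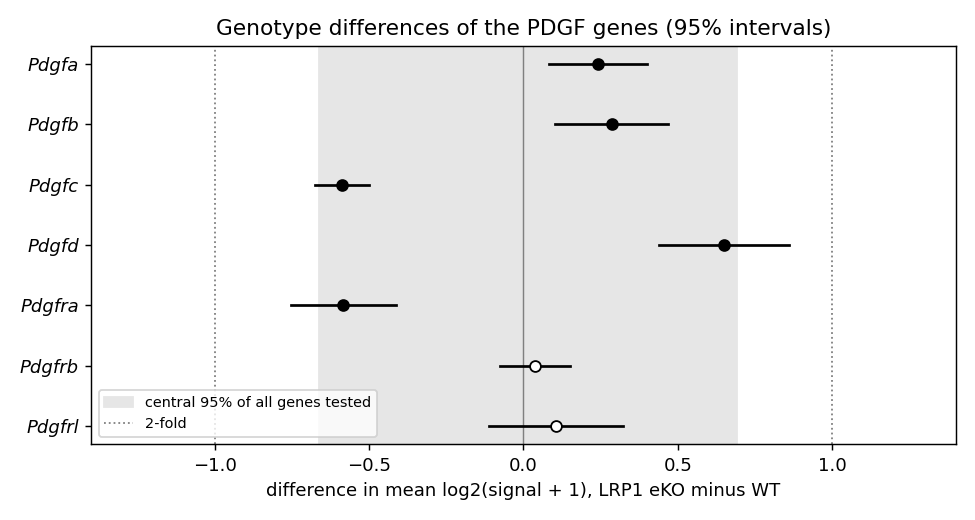
Difference in mean log2(signal + 1), LRP1 eKO minus WT (x axis), for each PDGF gene, with 95% intervals from limma. Filled points had an adjusted p below 0.05, the grey band holds the central 95% of the 11391 genes tested (-0.66 to 0.69), and dotted lines mark 2-fold. All 7 points lie inside the band, with Pdgfd (0.65) and Pdgfc (-0.59) near its edges.

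The 2 receptor kinases were compared within each library, since they share ligands. The log2 ratio of Pdgfra to Pdgfrb, each as signal + 1, was between 0.83 and 1.02 in WT libraries and between 0.11 and 0.48 in LRP1 eKO libraries. The ratio was lower in LRP1 eKO libraries by a mean of 0.62 on the log2 scale (exact two-sided permutation test, p = 0.029, and 0.051 adjusted over 16 ratios, which misses 0.05). This adjusted value is shared by all ratios without overlap, since p could not be lower. The difference stayed between -0.67 and -0.55 with any 1 library left out. The ratio of Pdgfa to Pdgfb was between 2.95 and 3.23 in WT and between 2.99 and 3.18 in LRP1 eKO libraries, so that the groups overlapped. Its mean difference was -0.044 (exact two-sided permutation test, p = 0.63), and it ran from -0.097 to -0.0042 with 1 library left out. With a pseudocount of 0.1 it was -0.24 (exact permutation test, p = 0.11).

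**Figure D3:**
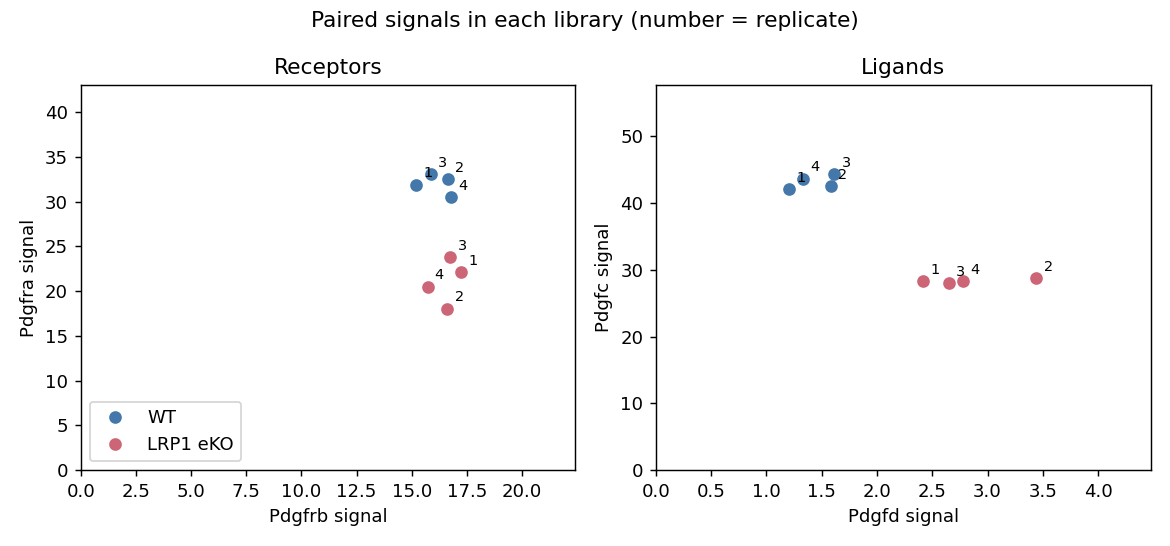
Signals of Pdgfra against Pdgfrb (left) and of Pdgfc against Pdgfd (right), 1 point for each library, with replicate numbers and all axes from 0. On the left the genotypes part along the Pdgfra axis, with WT at 30.5 or above and LRP1 eKO at 23.8 or below, and share the Pdgfrb range. On the right LRP1 eKO libraries are lower for Pdgfc and higher for Pdgfd.

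Within a genotype, deviations from the group mean were compared over the 8 libraries as a description. Libraries share their preparation and normalization, and 8 points give high correlations among many genes. Pdgfa and Pdgfrl deviated most alike of the 21 pairs of members (Pearson r = 0.81), and Pdgfb with Pdgfrl came next (r = 0.78). The lowest values were those of Pdgfd with Pdgfra (r = -0.55) and Pdgfd with Pdgfrl (r = -0.47). For Pdgfc the 3 genes outside the family with the highest r were Fam46b, Btd and Nubp1 (r = 0.996, 0.988 and 0.985). For Pdgfra they were Ucp2, Sf3b3 and Col18a1 (r = 0.990, 0.989 and 0.987), and for Pdgfrb they were Smg8, Iba57 and Apcdd1 (r = 0.963, 0.957 and 0.954). The genes closest to Pdgfa were Slc2a8, Psmb4 and Ostf1 (r = 0.984, 0.975 and 0.973), and those closest to Pdgfb were Lta4h, Mfap5 and Nusap1 (r = 0.995, 0.983 and 0.980). Those closest to Pdgfd were AI464131, Ubn1 and Pard6b (r = 0.967, 0.963 and 0.958), and for Pdgfrl they were Gltscr2, Parn and Fbxo36 (r = 0.988, 0.986 and 0.986).

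Lists of genes around the receptors were examined next, and the share of all genes tested that passed, 19.0% higher and 22.2% lower, stands behind each of their counts and those of the marker lists. Proteases that process the ligands came first. Furin and related convertases cut PDGF-A and PDGF-B inside the cell, while the tissue plasminogen activator Plat activates PDGF-C and the urokinase Plau activates PDGF-D. Of 6 tested genes, 2 were lower and 0 higher, with a median log2 difference of -0.0094, against -0.0095 over all genes tested. These were Plat and Plau. Plat fell from 14.8 ± 0.246 to 11.6 ± 0.795 (n = 4 each, SD), a log2 difference of -0.33 (limma adjusted p = 0.0013), and Plau fell from 18.8 ± 0.733 to 14.3 ± 2.05, a log2 difference of -0.38 (limma adjusted p = 0.0092). Pdgfc and Plat were thus both lower, while Pdgfd was higher and Plau lower. For Furin the log2 difference was -0.052 (limma adjusted p = 0.56).

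Among coreceptors and extracellular binders, 3 of 6 tested genes were lower and 0 were higher, with a median of -0.18. Lrp1, the targeted gene, fell past 2-fold, and the part of ECs in this fall was not tested. Because the targeted gene is among these 3 and in the median, the count of this list is not read against the share of all genes tested. The others were Sparc, a matrix protein that binds PDGF-B, with a log2 difference of -0.19 (limma adjusted p = 0.015), and Thbs1, a matrix protein that binds LRP1, with a log2 difference of -0.48 (limma adjusted p = 0.025).

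Downstream of the receptors, 11 of 26 tested adaptors and effectors were higher and 4 were lower, with a median of 0.14. Fyn, a Src family kinase that binds the receptors, rose from 10.2 ± 0.580 to 14.0 ± 0.146 (n = 4 each, SD), a log2 difference of 0.42 (limma adjusted p = 0.0002), and Map2k1, a kinase of the ERK cascade, rose by 0.33 (limma adjusted p = 0.00041). The adaptor Shc1 fell by 0.37 (limma adjusted p = 0.0026). Negative regulators went both ways, with 3 of 15 higher, 5 lower and a median of -0.072. Spry4 and Spry2, inhibitors of receptor kinase signaling, fell by 0.67 and 0.33 in log2 signal (limma adjusted p = 0.00063 and 0.0031). Cbl and Cblb, ubiquitin ligases that take receptors to the lysosome, rose by 0.67 and 0.44 (limma adjusted p = 0.020 and 0.013). The signal of Cbl was 3.32 ± 1.17 in WT libraries and 5.62 ± 0.458 in LRP1 eKO libraries (n = 4 each, SD).

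Of 13 tested early genes that PDGF induces in cultured fibroblasts, 8 were higher and 1 was lower, with a median of 0.26. Many other stimuli induce them too. Myc rose from 15.2 ± 0.852 to 23.7 ± 1.03 and Dusp1 from 15.6 ± 1.89 to 26.9 ± 1.26 (n = 4 each, SD), with log2 differences of 0.61 and 0.76 (limma adjusted p = 2.6e-05 and 9.6e-05). The chemokine gene Ccl7 rose by 0.96 (limma adjusted p = 0.0002), and Cxcl1 fell by 0.40 (limma adjusted p = 0.0023). Egr1, a prompt target of growth factors, had a log2 difference of 0.19 (limma adjusted p = 0.38). In the same libraries the macrophage marker sum ranged from 96.9 to 187 in WT libraries. It was 536, 47.9, 496 and 294 in LRP1 eKO replicates 1 to 4, so that only LRP1 eKO replicate 2 was not above the WT libraries. The part of macrophages in these differences was not tested.

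Of the related receptor kinases and VEGF ligands, which share the fold of PDGFs or the layout of their receptors, 6 of 9 tested genes were higher and 0 were lower, with a median of 0.47. Pgf was below a signal of 1 in every WT library and passed the filter only through LRP1 eKO libraries, and without it 5 of 8 were higher, with a median of 0.38. Vegfa rose from 40.4 ± 3.86 to 70.1 ± 4.37 and Flt1, a VEGF receptor of ECs, from 10.4 ± 1.10 to 16.3 ± 1.05 (n = 4 each, SD), with log2 differences of 0.78 and 0.60 (limma adjusted p = 3.5e-05 and 0.00028). Csf1r, also a macrophage marker, was between 2.52 and 2.64 in WT and between 2.36 and 9.15 in LRP1 eKO libraries, beside the macrophage sums given above. Flt1 and Flt4 are receptors of ECs, and the pan-endothelial marker sum was between 33.0 and 38.2 in WT and between 41.6 and 63.2 in LRP1 eKO libraries. The part of either cell type in these differences was not tested. Flt3 was listed at 0 in every library.

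**Figure D4:**
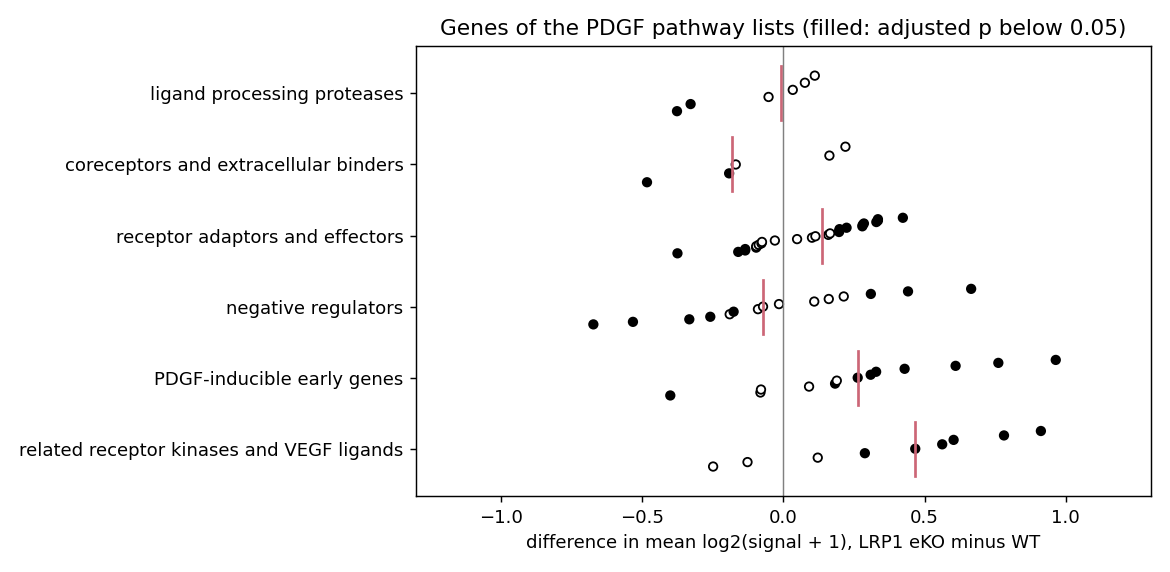
Difference in mean log2(signal + 1), LRP1 eKO minus WT (x axis), of each tested gene in 6 lists around the PDGF receptors, filled where the limma adjusted p was below 0.05. Red lines are list medians, from -0.18 for coreceptors and binders to 0.47 for related receptors and VEGF ligands. Lrp1, at -3.66, is beyond the axis and its point is left out, while the median of its list includes it.

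Cells that carry the PDGF receptors were followed through marker lists. The summed signal of 9 hepatic stellate markers was between 60.4 and 77.4 in WT and between 69.4 and 73.1 in LRP1 eKO libraries, so that the groups overlapped. Of 4 tested genes, 2 were higher and 1 lower, and Des and Hand2 led the sum. Des, an intermediate filament gene, was at 42.3 ± 4.98 and 44.2 ± 0.854, while Hand2, a transcription factor gene, rose from 14.1 ± 0.978 to 18.1 ± 0.673 (n = 4 each, SD, limma adjusted p = 0.0012). The defining stellate gene Lrat was near 0, with means of 0.112 and 0.0465. The sum thus rests mainly on Des and Hand2 and is not read as an amount of stellate cells. WT replicate 4 had the highest stellate sum (77.4) and also the highest sum of skeletal muscle markers (57.4). A part of muscle in the stellate sum was not tested. Fibroblast markers, led by Col1a2 and Dcn, summed to between 1979 and 2293 in WT and between 1727 and 2190 in LRP1 eKO libraries, with 3 of 7 tested genes lower and 0 higher. Markers of pericytes and smooth muscle, led by Acta2 and Tagln, summed to between 1454 and 1517 in WT and between 1798 and 1880 in LRP1 eKO libraries, with 4 of 5 tested genes higher and 0 lower, or 3 of 4 without Myh11, which only LRP1 eKO libraries carried past the filter. Rgs5, Kcnj8 and Abcc9, which define pericytes, had means of at most 0.374 in either group. Beside the lower Pdgfra, the fibroblast genes Dcn, Lum and Fbln1 were lower, while Col1a1, Col1a2, Col3a1 and Mfap5 had log2 differences from -0.20 to 0.19 that missed the threshold, and the fibroblast sums overlapped. The part of cell composition in the results of the receptors was not tested.

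Markers of ECs, the source of PDGF-B in vessels, were led by Eng and Egfl7. Their sum did not overlap between the groups, as given above, with 2 of 7 tested genes higher and 0 lower. Eng, a TGF-β coreceptor gene, rose from 12.4 ± 1.20 to 24.3 ± 3.86 (n = 4 each, SD, limma adjusted p = 0.00019), and without it the sums overlapped, at 22.1 to 24.3 in WT and 21.9 to 35.7 in LRP1 eKO libraries. Liver sinusoidal markers, led by Stab1 and Fcgr2b, summed to between 7.55 and 10.9 in WT libraries. Their sums were 29.1, 8.09, 25.6 and 17.6 in LRP1 eKO replicates 1 to 4. Of 4 tested genes 1 passed, Oit3, which only LRP1 eKO libraries carried past the filter, and 0 of the other 3 passed. Mesothelial markers, led by Msln and Upk3b, summed to between 1548 and 1953 and between 1986 and 2202, with 1 of 6 higher. Hepatocyte markers, led by Ass1 and Alb, overlapped in their sums, at 150 to 172 in WT and 152 to 170 in LRP1 eKO libraries. Of 5 tested genes 4 were lower, each past 2-fold, and 1, Ass1, was higher. Ass1 rose from 91.0 ± 2.23 to 138 ± 9.30, while Alb fell from 20.8 ± 3.77 to 6.15 ± 0.505 (n = 4 each, SD). The overlap of these sums is therefore not read as a level hepatocyte signal. Macrophage markers, led by Lyz2 and Cd68, had 1 of 5 tested genes higher. Platelets are a known store of PDGF, and of their markers, led by Itgb3 and Pf4, Ppbp and Gp9 were listed at 0 in every library, while 0 of 3 tested genes passed. Their sums were between 10.6 and 12.4 in WT and between 8.67 and 18.5 in LRP1 eKO libraries. Skeletal muscle markers, led by Myl1 and Mylpf, had sums of 33.3 to 57.4 in WT libraries and of 6.20 to 7.66 in LRP1 eKO libraries, with all 4 tested genes lower, of which Atp2a1 passed the filter only through WT libraries.

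**Figure D5:**
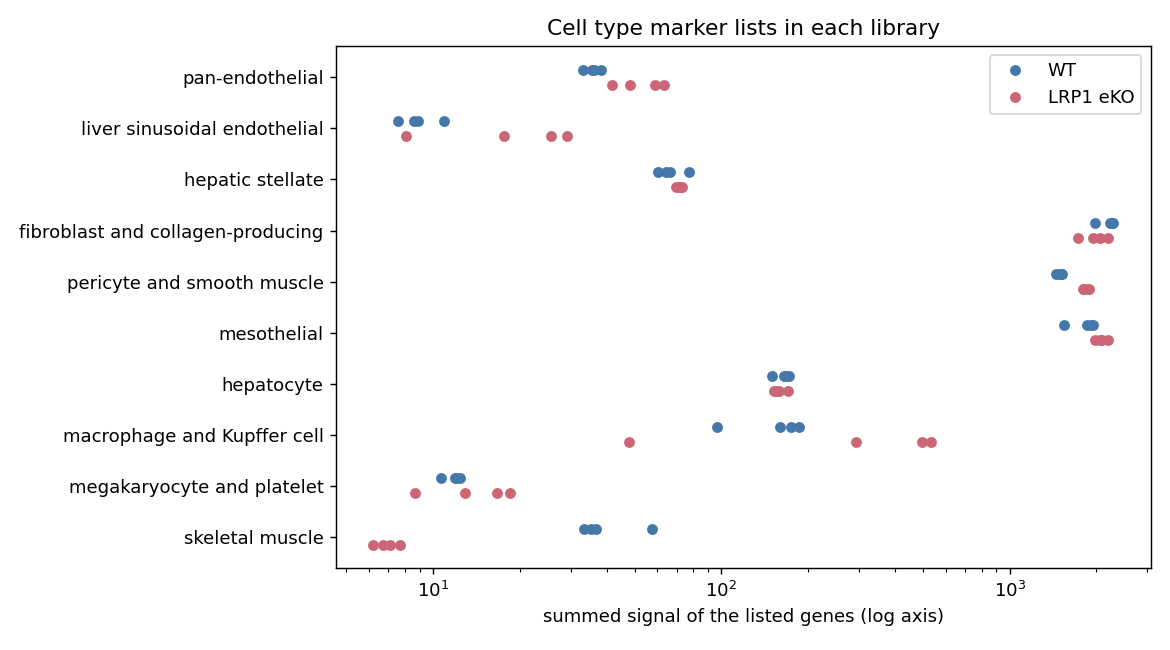
Summed signal of each cell type marker list (x axis, log scale) in 4 WT and 4 LRP1 eKO libraries, 1 point for each library. The pan-endothelial sums (33.0 to 38.2 in WT against 41.6 to 63.2 in LRP1 eKO libraries) do not overlap between genotypes, which rests on Eng, and the hepatic stellate sums (60.4 to 77.4 against 69.4 to 73.1) do.

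Each member was also read as a log2 ratio to the summed stellate and to the summed pan-endothelial markers of the same library. Against the stellate sum, the ratios of Pdgfc and Pdgfra were lower in LRP1 eKO libraries without overlap, with differences of -0.68 each. Those of Pdgfd and Pdgfa were higher without overlap, with differences of 0.55 and 0.15. For each of these 4 the exact two-sided permutation test gave p = 0.029, or 0.051 adjusted over 16 ratios, which misses the threshold. With 4 libraries in each group p cannot be lower, so that every ratio without overlap has this same adjusted value. It does not grade the ratios by the size of their differences. The ratios of Pdgfb, Pdgfrb and Pdgfrl overlapped between the groups, with differences of 0.19, -0.057 and 0.011 (exact permutation test, p = 0.086, 0.34 and 0.89). Without LRP1 eKO replicate 2 the Pdgfb difference was 0.24, and without WT replicate 4 the Pdgfrb difference was -0.11 (exact permutation test, p = 0.029 each). For Pdgfa without any 1 LRP1 eKO library, and for Pdgfra without LRP1 eKO replicate 2, p was 0.057 in the exact permutation test. Leaving out a library leaves fewer assignments, so that these p-values are not compared with those from all libraries. Against the pan-endothelial sum, 4 of 7 ratios were lower without overlap, with differences of -1.12 for Pdgfc, -1.12 for Pdgfra, -0.50 for Pdgfrb and -0.43 for Pdgfrl (exact permutation test, p = 0.029 each, 0.051 adjusted over 16 ratios). The ratios of Pdgfa, Pdgfb and Pdgfd to the pan-endothelial sum overlapped between the groups, with differences of -0.30, -0.25 and 0.11 (exact permutation test, p = 0.17, 0.14 and 0.69). With a pseudocount of 0.1 those of Pdgfb and Pdgfd were -0.054 and 0.38 (exact permutation test, p = 0.77 and 0.23). With Eng left out of the sum, a choice made after seeing the data, Pdgfc and Pdgfra stayed lower without overlap, with differences of -0.85 each (exact permutation test, p = 0.029). Pdgfrb and Pdgfrl then overlapped, with differences of -0.23 and -0.16 (exact permutation test, p = 0.20 and 0.34). For Pdgfrb against the pan-endothelial sum, p was 0.057 in the exact permutation test without any 1 WT library, and for Pdgfrl without WT replicate 4 or LRP1 eKO replicate 1 or 3. Pdgfc and Pdgfra were lower without overlap against both sums, while Pdgfa had a higher ratio to the stellate sum and an overlapping one to the pan-endothelial sum. The ratios reuse the signals of the members, so that they are not independent of the member differences given above.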

How the data were processed

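The deposited values are a quantile-normalized signal, made by the authors, of 22520 protein-coding genes in 8 libraries. The authors' methods name trimGalore, STAR, featureCounts and edgeR on mm10, while the submitters' processing notes name TopHat2 and Cufflinks. Which route made the signal is not stated with it. Quantile normalization removes any global shift between genotypes. Because no counts were at hand, edgeR was not used here.

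From the deposited signal, log2(signal + 1) was modelled on genotype alone in limma 3.58.1 (R 4.3.3) with a trend of variance on mean. Genes below a signal of 1 in more than 4 libraries were dropped. Adjusted p is Benjamini-Hochberg over 11391 genes, and the thresholds were 0.05 and 2-fold. Single values had exact permutation tests over 70 assignments, or over the fewer assignments of the remaining libraries where 1 was left out. The fit was tested on simulated data. With 200 of 11329 genes given a log2 change of 0.5 it found 156, and called 12 unchanged genes. With 200 of 11324 genes given a log2 change of 1 it found 198. The simulation drew noise independently for each gene and library and changed 200 genes, while 41.2% of genes tested passed in the data. These figures therefore check the fit and are not error rates for the data.

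The members, 6 pathway lists, 10 marker lists and motifs were chosen with earlier results of these data known. Named genes were the members, the 3 closest genes to each, list genes past both thresholds or else the 2 with the smallest adjusted p, and the 2 marker genes with the highest mean. Pecam1, Cdh5, Furin, St14, Sparc, Thbs1, Shc1, Cbl, Cblb, Ccl7, Cxcl1, Egr1, Pgf, Flt3, Lrat, Lum, Fbln1, Col1a1, Col3a1, Mfap5, Csf1r, Flt4, Oit3, Myh11, Atp2a1, Rgs5, Kcnj8, Abcc9, Ppbp and Gp9 were added after their values were seen. Some genes stand in 2 lists. In the stellate list 1 marker is not reported here and was left out of all sums and ratios after results were known. Positions came from GENCODE M21 on GRCm38, and upstream windows, found for 4 of the 7 members, from RefSeq on GRCm38.p6. Python 3.11.15 with matplotlib 3.10.9 drew the figures. Alternatives tried were other filters, pseudocounts of 0.1 and 5, array weights, other moderation, trimmed-mean centring, a block for the replicate number, a ratio of arithmetic means, and leaving out each library. Leaving out WT replicate 4 and LRP1 eKO replicate 2 together, and Eng out of the pan-endothelial sum, was added after seeing the data.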

Additional observations from a re-analysis of the deposited data

Results flagged for a closer look

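Dixon's test over 34 groups of 4 libraries, for the 7 members and 10 marker sums, set apart 1 library, where chance gives 1.7. WT replicate 4 had the highest sum of skeletal muscle markers, with a gap of 0.857 of the range to the next WT library. For 0 of the 7 members was a library set apart in this way.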

How the results depend on the processing

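The directions of all 7 members held under every alternative that gave a value. Pdgfc, Pdgfd and Pdgfra kept an adjusted p below 0.05 in all fits that tested them. A minimum mean signal of 5 left out Pdgfb and Pdgfd, and 3 of the 5 members tested then passed. With 1 library left out, from 3 to 5 members passed, beside 32.8% to 42.2% of all genes, and 6 did without WT replicate 4 and LRP1 eKO replicate 2 together, beside 44.3%, or with array weights, beside 50.2%. The ratio of arithmetic means gave log2 values of 0.53 for Pdgfb and 0.98 for Pdgfd. Over all genes, 189 passed both thresholds, against 315 with a pseudocount of 0.1, 66 with a pseudocount of 5, and 175 to 257 with 1 library left out. With array weights 147 were higher and 83 lower, and without LRP1 eKO replicate 2 these were 174 and 83, against 99 and 90. With 1 library left out, the ratios to the stellate sum ranged from 0.12 to 0.17 for Pdgfa, 0.15 to 0.24 for Pdgfb, -0.77 to -0.61 for Pdgfra, -0.11 to -0.023 for Pdgfrb and -0.032 to 0.071 for Pdgfrl, which turned without LRP1 eKO replicate 1 (-0.032) or 4 (-0.0004). With a pseudocount of 0.1 the Pdgfb ratio to the stellate sum was 0.40, without overlap. Those to the pan-endothelial sum ranged from -0.61 to -0.43 for Pdgfrb, -0.49 to -0.31 for Pdgfrl and -0.069 to 0.25 for Pdgfd, which turned without LRP1 eKO replicate 2. Without Eng in the pan-endothelial sum the ratio of Pdgfb turned to 0.023, and those of Pdgfrb and Pdgfrl were -0.23 and -0.16. The cause was not tested. With the replicate number as a block, 5 members passed the adjusted p and 192 genes passed both thresholds. Same-numbered libraries had deviations correlated by -0.086, -0.13, 0.18 and 0.038, and 0 of 8 libraries correlated best with their own number. No pairing by number was seen, but with 4 libraries in each group this cannot exclude that libraries were paired. Depth is unknown, so counting error at the low signals of Pdgfb and Pdgfd could not be computed.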
